A study of Mus musculus with 12 samples.

Results

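Macrophages and dendritic cells live among developing T cells in the thymus, and 42 genes that mark them were followed through RNA libraries of sorted regulatory T (Treg) cells. The genes were taken from a list of macrophage and dendritic cell markers, looked up as rows of a table of 55453 genes, and kept where their mean over all 12 libraries was at least 1 CPM (reads of the gene after scaling each library to 1000000 gene reads). Of the 42 genes, 27 were kept, and these were all 19 of those on the plus strand and 8 of the 23 on the minus strand. Just inside the minimum lay Slc40a1 at a mean of 1.10 CPM and C1qb at 1.13 CPM, and just outside it H2-Aa at 0.554 CPM and Fcer1g at 0.513 CPM. Minus-strand genes were poorly counted in these libraries, since plus-strand genes held 95.8 to 97.2% of the reads of protein-coding genes, so they are given apart.

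The cells were CD4 and Foxp3 positive Treg cells sorted by flow cytometry from C57BL/6 mice and not treated afterwards. CNS4 is a distal enhancer of Foxp3, the gene of the transcription factor that defines Treg cells. There were 4 groups of 3 libraries: male CNS4 knockout, male CNS4 floxed (labelled wild type), female CNS4 knockout heterozygotes and female CNS4 floxed heterozygotes. The labels did not give ages beyond saying that the mice were matched for age and sex, did not name the organ outright, although the sample titles contain the letters Thy, and did not state if a library is a single animal, so the p-values cover only the spread among these libraries, which may be technical. Knockout was compared with floxed within each sex, and sex cannot be told apart from zygosity. Gene counts per library ran from 12423335 to 30244505. Foxp3 itself averaged 1789 ± 297 CPM in male knockout libraries against 2493 ± 237 CPM in male floxed ones, and 1109 ± 620 CPM in female knockout libraries against 2628 ± 43.8 CPM in female floxed ones (SD, n = 3 each). Since the deleted enhancer acts on Foxp3, its level does not check the sort across genotypes. The T cell receptor component Cd3d lay between 775 and 1217 CPM in every library.

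Thymic macrophages engulf the many thymocytes that die during selection. They recognise phosphatidylserine on the dying cell through receptors such as Timd4 and, through bridging proteins, Mertk and Axl, and they digest the cell in lysosomes and recycle its iron. Dendritic cells present peptides on MHC class II molecules, made up of chains encoded by H2-Aa, H2-Ab1 and H2-Eb1 and guided by the invariant chain Cd74, and they take part in the deletion of self-reactive thymocytes and in the selection of Treg cells. B cells and thymic epithelium use the same class II genes. In bulk RNA such as this, fewer cells of a type and less RNA per cell cannot be told apart.

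The start regions of 3 members are printed. Mrc1 was taken because it was not raised in male knockout library 2 and male floxed library 4, at 1.03 and 0.663 times the mean of the other 4 males. Itgam and H2-Eb1 were taken because they were raised among the most in these 2 libraries. They were at 20.9 and 18.0 times that mean for Itgam and 24.8 and 23.6 times for H2-Eb1. Mrc1 encodes the mannose receptor of macrophages, Itgam the alpha chain of an integrin of macrophages and granulocytes, and H2-Eb1 a class II beta chain. Each stretch holds 250 bases before and 50 bases from the annotated start, from RefSeq on build GRCm38.p6, 5′ to 3′ on the gene's own strand, which is the plus strand for all 3. Capitals mark GAGGAAG, a purine-rich core of the kind bound by the macrophage factor that Spi1 encodes, on either strand (CTTCCTC where it lies on the opposite strand), or CTGATTGG, the Y box of class II promoters. The stretches lie at chr2:14229164-14229463 for Mrc1, chr7:128062390-128062689 for Itgam and chr17:34305617-34305916 for H2-Eb1.
Mrc1: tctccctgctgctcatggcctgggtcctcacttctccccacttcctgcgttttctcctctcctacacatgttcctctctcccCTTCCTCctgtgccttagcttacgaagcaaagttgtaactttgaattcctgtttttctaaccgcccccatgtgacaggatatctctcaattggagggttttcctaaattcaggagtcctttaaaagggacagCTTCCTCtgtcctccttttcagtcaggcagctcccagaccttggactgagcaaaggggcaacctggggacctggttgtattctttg
Itgam: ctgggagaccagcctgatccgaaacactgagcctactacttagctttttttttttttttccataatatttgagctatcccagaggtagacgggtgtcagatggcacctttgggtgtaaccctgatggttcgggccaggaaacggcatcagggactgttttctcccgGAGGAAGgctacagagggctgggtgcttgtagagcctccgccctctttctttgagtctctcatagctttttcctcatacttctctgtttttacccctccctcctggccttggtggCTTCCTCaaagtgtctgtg
H2-Eb1: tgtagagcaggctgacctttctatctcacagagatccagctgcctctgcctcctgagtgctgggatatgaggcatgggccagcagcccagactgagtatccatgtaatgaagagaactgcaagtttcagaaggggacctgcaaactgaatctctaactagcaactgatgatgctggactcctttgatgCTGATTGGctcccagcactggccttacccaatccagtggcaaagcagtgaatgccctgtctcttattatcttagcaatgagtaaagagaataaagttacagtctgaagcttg
Searched on both strands, GAGGAAG occurred in 6 of the 17 kept members with an entry in the table (35.3%), namely Fcgr3, Mrc1, Ctss, Axl, Itgam and Trem2, and in 13.6% of all 32851 promoters of the same length. CTGATTGG occurred in 1 of the 17 (5.88%), H2-Eb1, and in 4.10% of all promoters. The motifs do not overlap each other, and a match in these letters is a description and not a measured site.

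The levels of the macrophage genes varied widely between libraries of the same group. Added up, Adgre1, Csf1r, Timd4, Mpeg1 and Mrc1 came to 212, 1263 and 362 CPM in male knockout libraries 1, 2 and 3, against 85.2, 141 and 1198 CPM in male floxed libraries 1, 2 and 4. The sum was 696, 876 and 1471 CPM in female knockout libraries 1 to 3, against 1045, 238 and 530 CPM in female floxed libraries 1 to 3. In males, 1 library of each genotype therefore stood far above its group, and in females the genotypes overlapped.

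**Figure D1:**
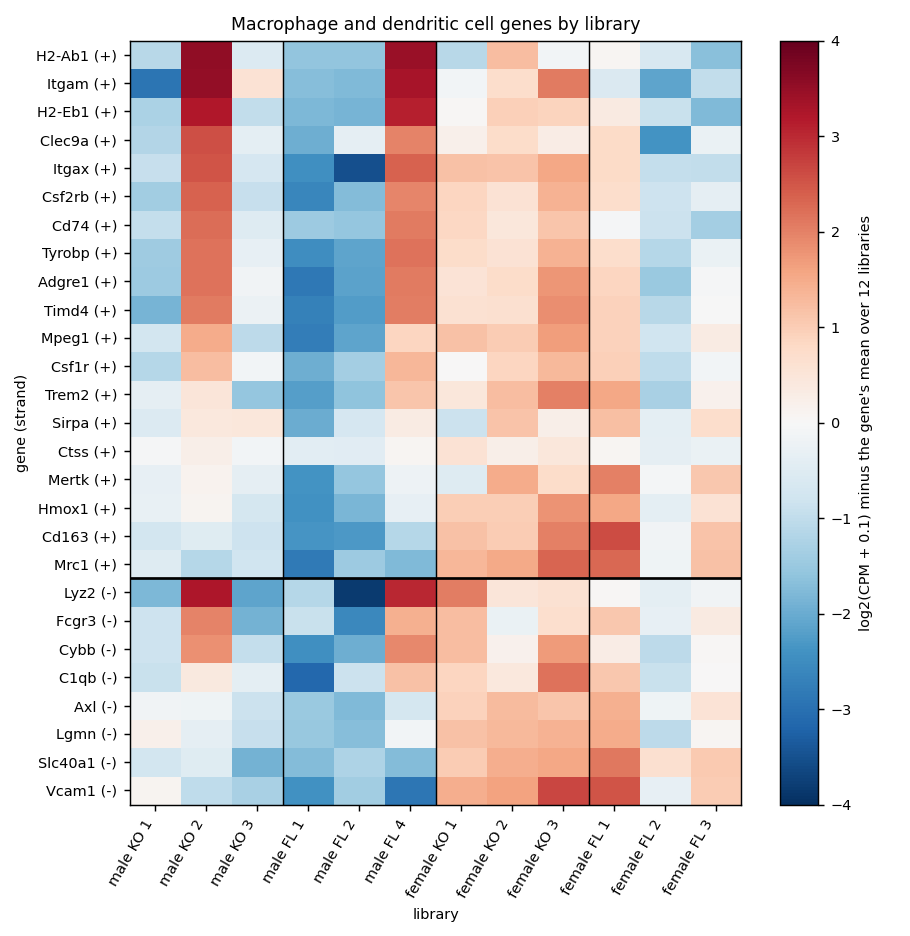
Heat map of the 27 kept genes (down) in the 12 libraries (across, knockout left of floxed within each sex), coloured by log2 of CPM plus 0.1 after subtracting each gene's mean. Male knockout library 2 and male floxed library 4 are high for most genes, while Mrc1, Cd163, Slc40a1 and Vcam1 do not follow these 2 and are higher in most females than in males.

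Among the surface receptors, Adgre1, the receptor whose antibody is the usual stain for mouse macrophages, had 37.7, 467 and 94.3 CPM in male knockout libraries, against 14.3, 23.5 and 440 CPM in male floxed libraries. In females, Adgre1 had 154, 175 and 359 CPM in knockout libraries, against 189, 37.2 and 101 CPM in floxed ones. Male knockout library 2 and male floxed library 4 were the 2 highest of all 12, at 11.0 and 10.4 times the mean of the other 4 males. Csf1r, the receptor for the growth factor that macrophages need to survive, ranked the libraries of each male genotype in the same order, with 83.0, 431 and 169 CPM in knockout libraries against 47.3, 71.8 and 463 CPM in floxed ones. Its female levels were 186, 336 and 456 CPM in knockout libraries against 354, 90.9 and 169 CPM in floxed ones. The genotypes overlapped for Csf1r in both sexes. Csf1r shares 873 exon bases with antisense annotation, so its reads may hold some from the other strand.

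Mrc1 behaved otherwise. It had 44.8, 29.2 and 36.5 CPM in male knockout libraries, against 8.96, 23.2 and 18.8 CPM in male floxed libraries, and the males' 2 genotypes did not overlap. Female knockout libraries had 161, 183 and 320 CPM of Mrc1, against 313, 56.7 and 145 CPM in female floxed ones. Every female library lay above every male library, and male knockout library 2 was 1.03 times the mean of the other 4 males. Cd163, the scavenger receptor that takes up haemoglobin bound to haptoglobin, had the same pattern, with 11.1, 13.1 and 10.2 CPM in male knockout libraries against 3.51, 3.64 and 8.26 CPM in male floxed ones. Female knockout libraries had 41.4, 37.3 and 74.3 CPM of Cd163, against 113, 16.7 and 40.3 CPM in female floxed ones. For Cd163 too, every female lay above every male, and in males every knockout library lay above every floxed one.

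Sirpa, the inhibitory receptor that reads the do-not-eat-me protein CD47 and is carried by macrophages and by a class of dendritic cells, had 36.6, 71.9 and 72.7 CPM in male knockout libraries against 13.5, 33.7 and 66.9 CPM in male floxed ones. In females it had 29.4, 119 and 62.6 CPM in knockout libraries against 124, 40.7 and 86.7 CPM in floxed ones, so the genotypes overlapped in both sexes. Csf2rb, the beta chain shared by the receptors for GM-CSF and IL-3, ranged from 3.17 to 104 CPM and was highest in male knockout library 2. Csf2rb has a close paralog, Csf2rb2, with which it may share reads.

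**Figure D2:**
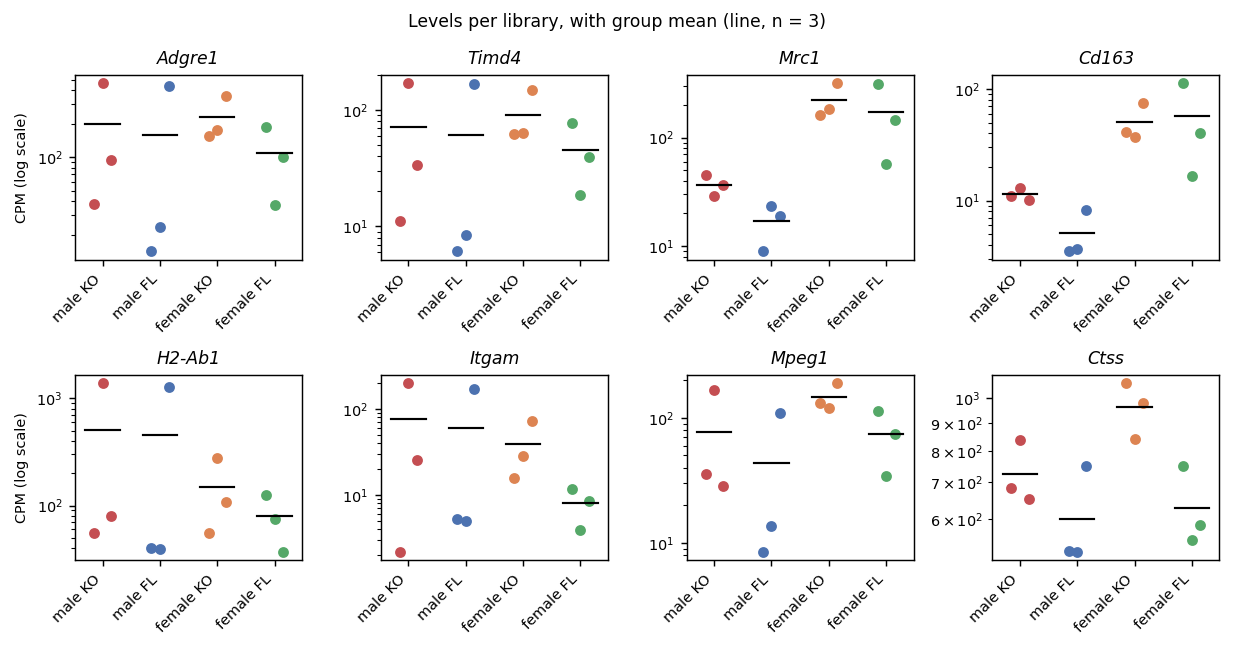
Levels of 8 members in CPM on a log scale, a point per library and a line at the mean of each group of 3. For Adgre1, Timd4, H2-Ab1 and Itgam a single library in each male group stands above the rest, for Mrc1 and Cd163 all 6 females stand above all 6 males, and Ctss varies 2.04-fold over all libraries.

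Among the receptors for dying cells, Timd4, a direct receptor for phosphatidylserine, had 11.1, 170 and 33.9 CPM in male knockout libraries, against 6.13, 8.45 and 168 CPM in male floxed libraries. Female knockout libraries had 62.1, 62.8 and 147 CPM of Timd4, against 77.0, 18.5 and 39.4 CPM in female floxed ones. Timd4 kept close to Adgre1 in every library, as its ratio to Adgre1 was between 0.293 and 0.497. Mertk, a receptor tyrosine kinase for dying cells that binds through bridging proteins, had 28.1, 39.2 and 28.0 CPM in male knockout libraries against 6.75, 12.1 and 31.0 CPM in male floxed ones. In females Mertk had 25.0, 99.4 and 59.2 CPM in knockout libraries against 143, 33.6 and 75.1 CPM in floxed ones. Mertk was thus little raised in male knockout library 2 and male floxed library 4, at 2.09 and 1.65 times the mean of the other 4 males. Trem2, a lipid receptor that signals through the Tyrobp adaptor, was near the minimum, with 1.26, 2.31 and 0.493 CPM in male knockout libraries against 0.276, 0.465 and 3.61 CPM in male floxed ones. Its female levels were 2.29, 3.93 and 6.85 CPM in knockout libraries against 4.99, 0.603 and 1.83 CPM in floxed ones, and the genotypes overlapped in both sexes.

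Tyrobp, the adaptor through which many myeloid receptors signal, had 15.2, 186 and 32.3 CPM in male knockout libraries, against 7.16, 9.30 and 186 CPM in male floxed libraries. In females Tyrobp had 68.8, 61.1 and 106 CPM in knockout libraries, against 67.2, 18.4 and 33.9 CPM in floxed ones. Like Timd4, Tyrobp stayed in a narrow ratio to Adgre1, from 0.296 to 0.502.

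Of the lysosome and phagosome genes, Ctss, the cysteine protease that trims the invariant chain from class II molecules, was the most abundant per exon length of all members, at a mean of 536 CPM per kilobase. It had 683, 836 and 654 CPM in male knockout libraries against 525, 522 and 750 CPM in male floxed libraries. In females Ctss had 1065, 841 and 981 CPM in knockout libraries against 750, 549 and 585 CPM in floxed ones, and there the genotypes did not overlap. Its highest library was 2.04 times its lowest, the smallest such ratio among the kept members. Mpeg1, a pore-forming protein of phagosomes, had 35.6, 165 and 28.5 CPM in male knockout libraries against 8.54, 13.6 and 108 CPM in male floxed ones. Female knockout libraries had 132, 119 and 189 CPM of Mpeg1 against 113, 34.4 and 74.8 CPM in female floxed ones, with no overlap. Hmox1, the enzyme that breaks down haem and the plus-strand member of the iron and red cell recycling group, had 19.5, 26.1 and 14.8 CPM in male knockout libraries against 4.41, 6.66 and 19.0 CPM in male floxed ones. In females Hmox1 had 47.7, 48.0 and 84.0 CPM in knockout libraries against 70.5, 18.2 and 35.9 CPM in floxed ones, and the genotypes overlapped in both sexes.

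The integrin genes had the widest ranges among the plus-strand members. Itgam had 2.20, 200 and 25.9 CPM in male knockout libraries, against 5.24, 5.04 and 172 CPM in male floxed libraries. In females Itgam had 15.9, 28.6 and 73.6 CPM in knockout libraries, against 11.7, 3.92 and 8.62 CPM in floxed ones, with no overlap. Its highest library was 91.1 times its lowest. Itgax, the alpha chain of the integrin most used to mark dendritic cells, had 5.15, 57.3 and 6.18 CPM in male knockout libraries against 1.72, 0.775 and 51.0 CPM in male floxed ones. Female knockout libraries had 22.2, 21.6 and 28.7 CPM of Itgax against 16.9, 5.05 and 4.89 CPM in female floxed ones, again with no overlap.

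Among the plus-strand members, the class II genes set male knockout library 2 and male floxed library 4 furthest apart from the other males. H2-Ab1 had 55.2, 1381 and 80.4 CPM in male knockout libraries, against 39.8, 39.4 and 1287 CPM in male floxed libraries, which is 25.7 and 23.96 times the mean of the other 4 males for these 2 libraries. In females H2-Ab1 had 55.03, 280 and 108 CPM in knockout libraries, against 125, 75.4 and 37.3 CPM in floxed ones. All 6 females lay below both of those male libraries. H2-Eb1 had 29.5, 646 and 35.6 CPM in male knockout libraries against 20.0, 19.2 and 614 CPM in male floxed ones. Its female levels were 72.7, 137 and 130 CPM in knockout libraries against 90.2, 37.6 and 20.8 CPM in floxed ones. The ratio of H2-Ab1 to H2-Eb1 was 0.756 and 0.835 in female knockout libraries 1 and 3, and between 1.39 and 2.26 in the other 10 libraries. Cd74 had 283, 2564 and 384 CPM in male knockout libraries against 200, 185 and 2302 CPM in male floxed ones. In females Cd74 had 970, 752 and 1185 CPM in knockout libraries against 533, 299 and 214 CPM in floxed ones, with no overlap. Clec9a, a receptor for dead cells on cross-presenting dendritic cells and the dendritic cell gene among those kept, had 0.314, 5.42 and 0.607 CPM in male knockout libraries against 0.138, 0.620 and 3.54 CPM in male floxed ones. The female levels of Clec9a were 0.964, 1.43 and 1.03 CPM in knockout libraries against 1.48, 0.0754 and 0.672 CPM in floxed ones, which overlapped.

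The 8 kept minus-strand members were C1qb, Lyz2, Fcgr3, Cybb, Lgmn, Axl, Slc40a1 and Vcam1, and 7 of these had a mean under 4 CPM. Lyz2, the lysozyme of macrophages and granulocytes, was the exception, with 5.02, 168 and 4.02 CPM in male knockout libraries against 7.92, 1.16 and 144 CPM in male floxed ones. In females Lyz2 had 74.0, 24.8 and 26.8 CPM in knockout libraries against 18.3, 13.4 and 16.0 CPM in floxed ones, with no overlap, and its paralog Lyz1 may share reads with it. Slc40a1, the exporter through which macrophages release iron, had 0.377, 0.462 and 0.114 CPM in male knockout libraries against 0.138, 0.232 and 0.139 CPM in male floxed ones. Female knockout libraries had 1.51, 2.07 and 2.21 CPM of Slc40a1 against 3.30, 1.13 and 1.53 CPM in female floxed ones, and every female lay above every male. Vcam1, an adhesion molecule carried by macrophages that recycle red cells, had 1.26, 0.528 and 0.417 CPM in male knockout libraries against 0.138, 0.387 and 0.0694 CPM in male floxed ones. Vcam1 had 3.38, 3.78 and 8.03 CPM in female knockout libraries against 7.15, 0.905 and 2.44 CPM in female floxed ones. For Vcam1 the male genotypes did not overlap, but some male values rest on as little as 1 read. Axl had 2.64, 2.58 and 1.56 CPM in male knockout libraries against 0.964, 0.775 and 1.74 CPM in male floxed ones. In females Axl had 5.54, 7.14 and 6.41 CPM in knockout libraries against 7.89, 2.56 and 4.28 CPM in floxed ones, and the genotypes overlapped in both sexes. The other 4, the complement chain C1qb, the Fc receptor Fcgr3, the oxidase subunit Cybb and the lysosomal protease Lgmn, had means of 1.13, 1.43, 1.88 and 3.64 CPM.

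All 15 members under the minimum were on the minus strand: C1qa, C1qc, Cd68, Cd14, Fcgr1, Fcer1g, Spic, Marco, Siglec1, Aif1, Apoe, H2-Aa, Flt3, Xcr1 and Zbtb46. Of these, H2-Aa reached 41 reads in its highest library and Fcer1g 22, and these 2 passed the low-count filter of the test but no comparison at an adjusted p of 0.05 by edgeR. The other 13 reached 14 reads at most. Between 0.114 and 0.232 CPM corresponded to 3 reads, so a level under that was not detectable at this depth. With so few reads on that strand, these values do not show that the genes were off.

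Most members varied together across libraries. Over all 12 libraries, the 171 pairs of the 19 plus-strand members had a median Pearson r of 0.77 on the log2 CPM scale, and 0.83 after the mean of each group was subtracted. The median pair of all 8382 tested plus-strand genes with a mean of at least 1 CPM had an r of -0.01. Without male knockout library 2 and male floxed library 4, the members' medians were 0.83 and 0.65. These are descriptions over 12 libraries in which all genes of a library share its depth and its scaling.

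Relative to Adgre1, the genes fell into those that kept a steady ratio and those that did not. Timd4 and Tyrobp each varied 1.70-fold in that ratio over the 12 libraries. The ratio of Mrc1 to Adgre1 was 0.0625 in male knockout library 2 and 0.0427 in male floxed library 4, against 0.388 to 1.19 in the other 4 males and 0.892 to 1.66 in females. The ratio of Cd163 to Adgre1 was 0.0280 and 0.0188 in those 2 male libraries, and reached 0.5997 in female floxed library 1. The Pearson r of Mrc1 with Adgre1 was 0.45 over 12 libraries and 0.93 over the 10 without those 2 libraries. With Vcam1 and Cd163, by comparison, Mrc1 had an r of 0.97 and 0.96 over all 12 libraries. These values include the higher level of Mrc1, Vcam1 and Cd163 in females. After group means were subtracted, the r of Mrc1 was 0.85 with Vcam1, 0.82 with Cd163 and 0.38 with Adgre1. Vcam1 reached the minimum level only through the females, and its male libraries held 1 to 20 reads.

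**Figure D3:**
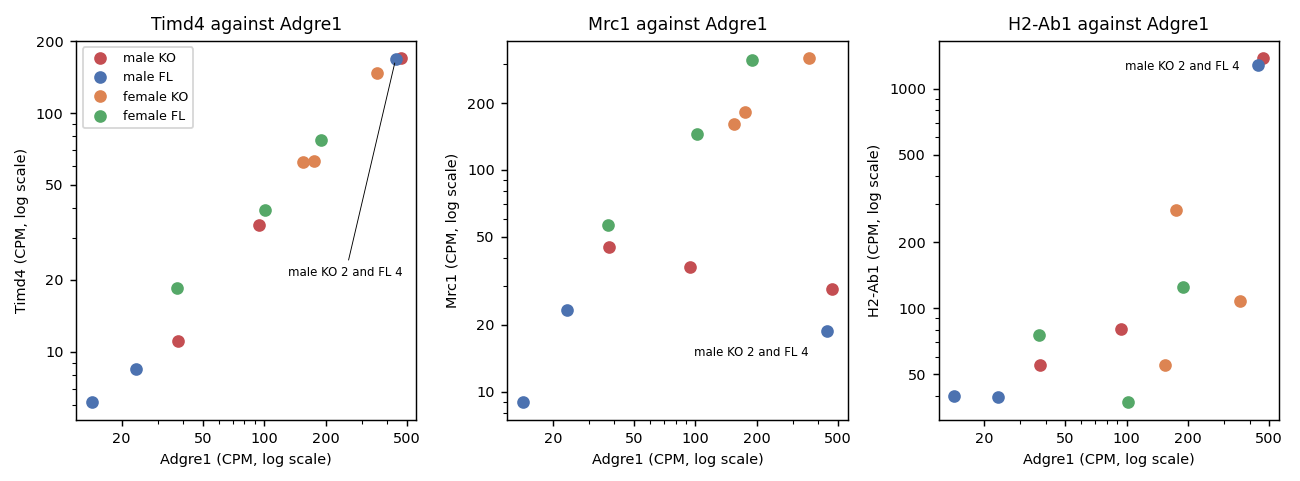
Level of Timd4, Mrc1 and H2-Ab1 against Adgre1, a point per library, both axes in CPM on a log scale. Timd4 lies close to a line with Adgre1, and for H2-Ab1 male knockout library 2 and male floxed library 4 are the highest on both axes. For Mrc1 these 2 have the highest Adgre1 but an Mrc1 level of 29.2 and 18.8 CPM, within the 8.96 to 44.8 CPM of the other males.

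**Figure D4:**
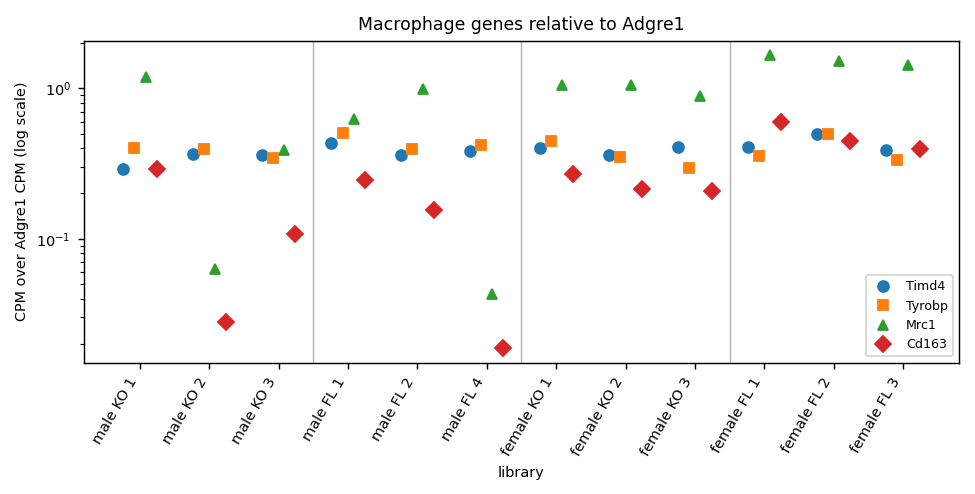
Ratios to Adgre1 of Timd4, Tyrobp, Mrc1 and Cd163 in each of the 12 libraries, on a log scale. The ratios of Timd4 and Tyrobp stay between 0.293 and 0.502, and those of Mrc1 and Cd163 drop in male knockout library 2 and male floxed library 4.

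The spread between replicates of a group was much wider for these genes than for most. The median within-group SD of log2 CPM was 1.28 for the 27 kept members and 0.35 for the 10470 tested genes with a mean of at least 1 CPM. Ctss had the smallest, 0.23, and Lyz2 the largest, 2.32. The fold changes below carry that error.

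No kept member passed an adjusted p of 0.05 between knockout and floxed libraries, tested by quasi-likelihood in edgeR and adjusted (Benjamini-Hochberg) over all 12411 genes. In males 0 of 27 members passed, where 0.0242% of all tested genes did. The log2 fold changes in males (knockout over floxed) of the 19 plus-strand members ran from -0.14 to 1.15. Over all 27 members adjusted p ran from 0.642 to 0.999 by edgeR, and 25 of 27 fold changes were above 0, as were 51.7% of all tested genes. The members' male median was 0.35, while the median of all tested genes was 0.01. The members' median was -0.77 without male knockout library 2, 2.41 without male floxed library 4, and 1.35 without both. It also turned to -0.05 and -0.07 without male floxed library 1 or 2. Adgre1, for instance, had a log2 fold change of 0.33 (SE 1.24) in males, which became -1.28 without male knockout library 2 and 3.41 without male floxed library 4. No direction can be given for the male comparison of such genes.

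In males every knockout library lay above every floxed one for 3 of the 27 members (11.1%), Mrc1, Cd163 and Vcam1, and for 8.2% of all tested genes. The reverse held for 0 members and for 6.13% of all tested genes. Mrc1 had a log2 fold change of 1.12 (SE 0.56, adjusted p = 0.682) and Cd163 one of 1.15 (SE 0.62, adjusted p = 0.725) in males by the same edgeR test. Vcam1 did not pass either, and since its male libraries held 1 to 20 reads its fold change is not given. The share of 11.1% is near the background.

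In heterozygous females 0 of 27 members passed, against 0.201% of all tested genes. Of all tested genes 48.7% had a log2 fold change above 0, with a median of -0.02. Those of the members ran from -0.46 for Mertk to 2.28 for Itgam with a median of 0.80, and 23 of 27 were above 0. The largest, Itgam, had an SE of 1.58 and an adjusted p of 0.415 by edgeR. Every knockout library lay above every floxed one for 6 members (22.2%), Ctss, Mpeg1, Cd74, Itgam, Itgax and Lyz2, and for 15.3% of all tested genes. The reverse held for 0 members and for 9.7% of all tested genes. The female median was 1.54 without female floxed library 1 and 0.51 without female floxed library 2, and 0.62 without female knockout libraries 1 and 3, whose Foxp3 level was 684 and 823 CPM against 1821 to 2654 CPM in the other females.

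Over both sexes together 0 of 27 members passed, against 3.31% of all tested genes. Of all tested genes 47.7% had a log2 fold change above 0, with a median of -0.02. All 27 of the members' were above 0, but the members vary together, so these are not 27 separate observations. The members' fold changes ran from 0.21 to 1.30 with a median of 0.66. That median was 0.03 without male knockout library 2 and 1.45 without male floxed library 4. Ctss came closest, with a log2 fold change of 0.44 (SE 0.13, adjusted p = 0.0858 by edgeR) over both sexes and 0.62 (SE 0.18, adjusted p = 0.143 by edgeR) in females. DESeq2 gave Ctss an adjusted p of 0.0385 over both sexes. At an unadjusted p under 0.05 by edgeR, 0 of 27 members passed in males, 1 in females and 1 over both sexes, where 8.12%, 19.2% and 20.2% of all tested genes did. By DESeq2, 0 members passed in males, 0 in females and 1 over both sexes, where 2.33%, 6.76% and 9.17% of all genes with an adjusted p did. By limma-voom with sample quality weights, which give less weight to libraries that stand apart, the members' counts were 0, 10 and 7, where 1.43%, 43.8% and 37.3% of all tested genes passed. In each of these the share of the members that passed was below that of all genes.

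**Figure D5:**
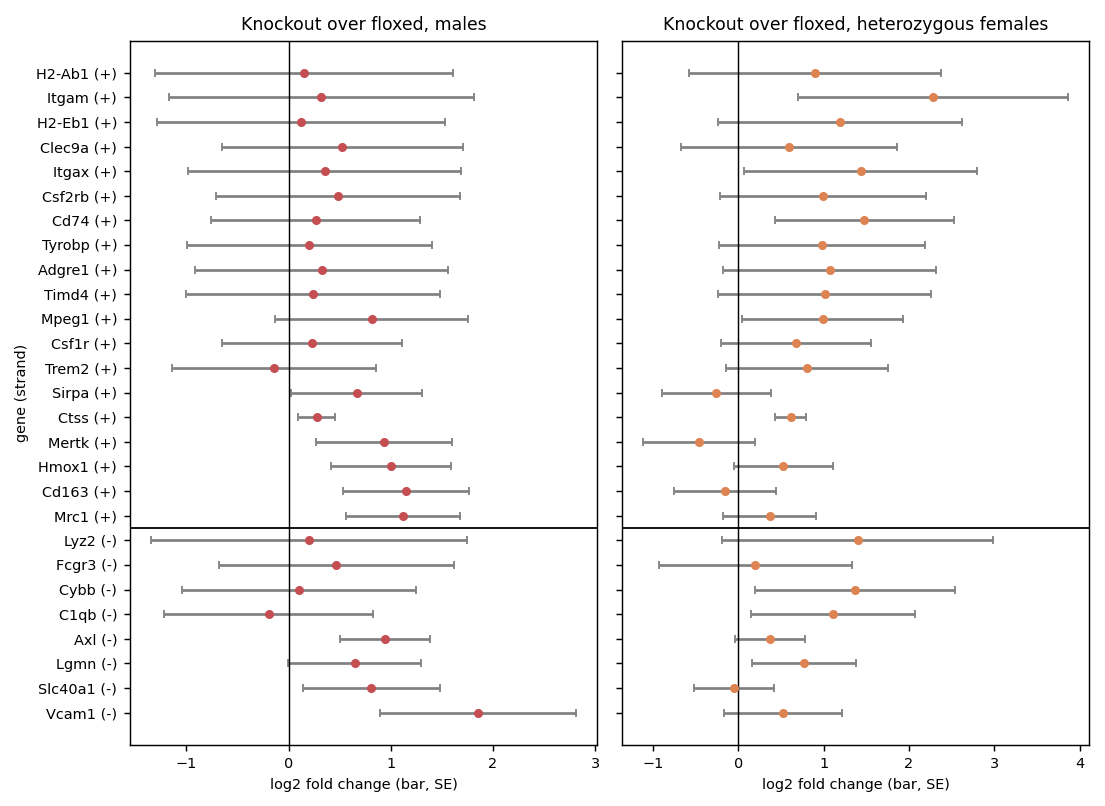
Log2 fold change, knockout over floxed, of the 27 kept members in males and in heterozygous females, with bars of 1 SE from the edgeR fit. No member passed the adjusted p threshold of 0.05 in either sex, and most bars include or come near 0. The male point of Vcam1 rests on libraries of 1 to 20 reads.

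A test of female against male knockout effects passed for 0 of 27 members and for 0% of all tested genes, with adjusted p from 0.892 to 0.996 by edgeR for the members. No member had an unadjusted p under 0.05 there by edgeR, where 2.73% of all tested genes did, nor did any pass by DESeq2 or limma-voom, where 0% and 8.38% of all genes did. The median difference, female minus male, was 0.44 on the log2 scale, and it was -1.80 without male floxed library 4 and 1.78 without male knockout library 2.

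Females and males were compared after the levels above had been seen. Over the mean of both genotypes, Mrc1 rose in females relative to males with a log2 fold change of 2.96 (SE 0.41, adjusted p = 0.0170), Cd163 with 2.81 (SE 0.45, adjusted p = 0.0312) and the minus-strand gene Axl with 1.79 (SE 0.31, adjusted p = 0.0398), by edgeR's quasi-likelihood test, where 0.411% of all tested genes passed in either direction. Mrc1 averaged 197 CPM in females and 26.9 CPM in males, and Cd163 53.9 CPM in females and 8.29 CPM in males. Slc40a1 and Vcam1 passed the same test, but Slc40a1 averaged 1.96 CPM in females and 0.244 CPM in males, and Vcam1 4.28 CPM in females and 0.466 CPM in males. Both therefore reached the minimum of 1 CPM only through the females. Their male libraries held 2 to 7 reads of Slc40a1 and 1 to 20 reads of Vcam1, so they are given as levels, with no fold change. All 6 females lay above all 6 males for Mrc1, Cd163 and Slc40a1, and for 1.47% of all tested genes.

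Of the other members, Hmox1, Mertk and Lgmn had log2 fold changes of 1.81, 1.64 and 1.56 between females and males without passing (adjusted p = 0.0629, 0.0640 and 0.0640 by edgeR). These 3 passed by DESeq2 and by limma-voom with quality weights, where 22.1% and 34.1% of all genes did. Adgre1 averaged 169 CPM in females and 180 CPM in males, with a log2 fold change of -0.17 (SE 0.87), and H2-Ab1 averaged 114 CPM in females and 480 CPM in males, with -2.15 (SE 1.07, adjusted p = 0.187 by edgeR). Both male means were raised by male knockout library 2 and male floxed library 4. The other males averaged 42.4 CPM of Adgre1 and 53.7 CPM of H2-Ab1, below the female means. Over the 19 kept plus-strand members the log2 fold changes ran from -2.15 to 2.96. Of all 27 kept members 15 were above 0, as were 50.4% of all tested genes. At an unadjusted p under 0.05 by edgeR, 8 of the 27 were counted (29.6%), and 33.2% of all tested genes. The 27 include C1qb, Slc40a1 and Vcam1, which reached the minimum only through the females. They also include Clec9a, which reached it only through the males, at 1.77 CPM against 0.942 CPM in females.

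The calls between females and males were lost in many fits with 1 library left out, although the fold changes kept their direction. With each of the 12 libraries left out in turn, Mrc1 passed in 7 of the 12 fits, Cd163 in 4 and Axl in 3, while the share of all tested genes that passed ran from 0.0853% to 32.9%. None of these 3 passed without male knockout library 2 or 3, male floxed library 1 or 4, or female knockout library 3. Cd163 and Axl also did not pass without male floxed library 2, female floxed library 3 or female knockout library 1, nor Axl without female floxed library 1. None of them passed without both male knockout library 2 and male floxed library 4, without both female knockout libraries 1 and 3, or with the replicate number as a block, where 0.0863%, 0.0516% and 0.0403% of all tested genes passed. Over the fits without 1 library, the log2 fold change ran from 2.58 to 3.18 for Mrc1, from 2.31 to 3.07 for Cd163 and from 1.53 to 1.99 for Axl.

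The 10 genes whose level was most like that of the same 5 macrophage genes, over the 12 libraries after subtracting group means and among 6670 plus-strand protein-coding genes, were Tbxas1, Fmn1, Grn, Slc11a1, Cd300a, Lpl, Tmem106a, Adgre4, Car9 and Ptafr, with a Pearson r of 0.977 to 0.997. Tbxas1 encodes thromboxane synthase, Grn the lysosomal protein progranulin, Slc11a1 a metal transporter of the phagosome, Cd300a an inhibitory lipid receptor, Lpl lipoprotein lipase and Adgre4 a relative of Adgre1. Grn had 179, 517 and 244 CPM in male knockout libraries, against 83.6, 108 and 499 CPM in male floxed ones. In females Grn had 396, 478 and 826 CPM in knockout libraries, against 586, 166 and 286 CPM in floxed ones. Within each male genotype Grn ranked the libraries as Adgre1 did, but it was picked for its likeness to a mean that includes Adgre1.

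Of 25 other macrophage genes, 17 were tested, and 0 passed in males, in females or over both sexes. Of all tested genes 0.0242%, 0.201% and 3.31% passed there. Cd5l, a secreted protein of tissue macrophages, had 3.08, 242 and 30.5 CPM in male knockout libraries against 5.65, 6.59 and 222 CPM in male floxed ones. Spi1, which encodes a master transcription factor of macrophages, had 2.76, 44.1 and 22.0 CPM in male knockout libraries against 3.996, 5.27 and 55.3 CPM in male floxed ones. Both were high in male knockout library 2 and male floxed library 4. In females Cd5l had 19.8, 29.8 and 84.3 CPM in knockout libraries against 38.7, 5.35 and 15.8 CPM in floxed ones. Spi1 had 2.23, 11.6 and 3.17 CPM in female knockout libraries against 9.44, 3.92 and 5.87 CPM in female floxed ones. In female knockout library 3, where the sum of the 5 macrophage genes was highest, Spi1 was thus low. Of 19 other dendritic cell genes, 15 were tested and 0 passed in the same 3 comparisons, against the same shares of all tested genes. Ccl22, a chemokine of mature dendritic cells, had 5.65, 278 and 6.30 CPM in male knockout libraries against 5.79, 10.8 and 190 CPM in male floxed ones. Mgl2, a lectin of dendritic cells and macrophages, had 0.314, 48.0 and 1.10 CPM in male knockout libraries against 0.276, 0.387 and 49.0 CPM in male floxed ones.

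Markers of other cells moved with some of these values. Of 10 neutrophil and monocyte genes, 6 were tested, and the summed level of the 8 on the plus strand was 191 to 621 CPM in male knockout libraries, 81.5 to 462 CPM in male floxed ones, 240 to 488 CPM in female knockout ones and 96.3 to 142 CPM in female floxed ones. Mpo, the peroxidase of granulocyte precursors, had 160 CPM in male knockout library 2 and 181 CPM in male floxed library 4, and at most 13.0 CPM elsewhere. Mpo shares 512 exon bases with antisense annotation. Elane, the elastase of the same cells, had 36.5 and 34.3 CPM in those 2 libraries and at most 0.135 CPM elsewhere. Ccr2, the chemokine receptor of monocytes and of some T cells, was the member of this list that passed over both sexes, where 3.31% of all tested genes did. Its log2 fold change there was 1.43 (SE 0.23, adjusted p = 0.0114 by edgeR). In the same 2 libraries Ccr2 was at 1.63 and 0.901 times the mean of the other 4 males. Ccr2 also made up most of the summed level in females. It averaged 340 of 375 CPM in female knockout libraries and 108 of 121 CPM in female floxed ones. The female difference in the sum was thus mostly that of Ccr2. In male knockout library 2 and male floxed library 4 Ccr2 was 255 of 621 and 142 of 462 CPM. After group means were subtracted, its r with the macrophage genes was 0.18, against 0.54 to 0.94 for the other tested genes of this list. The part of neutrophils and monocytes in the members' levels was not tested.

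For 2 B cell genes on the plus strand out of 10, Cd79a and Ebf1, the summed level was 16.9 to 66.7 CPM in male knockout libraries and 18.5 to 42.2 CPM in male floxed ones, 27.6 to 43.6 CPM in female knockout ones and 17.8 to 26.1 CPM in female floxed ones. It was highest in male knockout library 2. Immature thymocyte genes, 5 of 7 on the plus strand, summed to 209 to 422 CPM in male knockout libraries, 201 to 395 CPM in male floxed ones, 330 to 751 CPM in female knockout ones and 310 to 425 CPM in female floxed ones. Among them Dntt and Rag2, the genes of antigen receptor assembly, had an r of 0.77 and 0.84 with the mean of the 5 macrophage genes after group means were subtracted. Thymic epithelial genes, 3 of 10 on the plus strand, summed to 49.1 to 153 CPM over the 12 libraries, stromal and endothelial genes, 7 of 9, to 8.90 to 128 CPM, and erythroid genes, 4 of the 6 found of 7 listed, to 5.69 to 33.6 CPM. The erythroid gene Hba-a1 ran against the macrophage genes, with an r of -0.77. The T and Treg cell genes on the plus strand, 5 of 11, summed to 6040 to 7859 CPM, and Cd3d and Foxp3 had an r of -0.36 and -0.28 with the macrophage genes. Of the T and Treg list, Ctla4 rose over both sexes in knockout libraries, with a log2 fold change of 0.50 (SE 0.12, adjusted p = 0.0457 by edgeR), and the other 10 did not pass. Over both sexes 3.31% of all tested genes passed.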

How the data were processed

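The authors deposited raw read counts per gene symbol for 12 libraries in 1 table, without normalization. The submitters' processing notes name CASAVA, STAR 2.5.2b, STAR 2.3.0e, HTSeq 0.6.1p1 and build mm9, and the labels' protocols name SMARTer Stranded RNA-Seq kits; the annotation and strand setting are not given in the sources used here. The 5 HTSeq summary entries, 64.3 to 70.5% of a library's reads, were left out.

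Genes were filtered with filterByExpr, which left 12411, scaled by TMM, and tested with edgeR 4.0.16 in R 4.3.3, 1 mean per group over all 12 libraries, with Benjamini-Hochberg adjustment and a threshold of 0.05. CPM use TMM-adjusted totals and log2 CPM a prior count of 2. Strand and exon length came from GENCODE M21 by symbol (54508 genes matched), a later build, so no coordinates are taken from it. The fit was tested on simulated counts. Between replicates, chi-square over its degrees of freedom was 4.82 to 149, above counting noise.

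The members and lists were chosen with earlier results of these data known. Values per library are given for up to 4 plus-strand members of each role with the highest mean, and for members that passed a test. Alternatives used DESeq2 1.42.0, limma 3.58.1 voom, RLE scaling, other filters, a replicate block and libraries left out. The comparison of females with males and the fits without pairs of libraries were added after the data were seen. Figures used matplotlib 3.10.9 in Python 3.11.15.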

Additional observations from a re-analysis of the deposited data

How the results depend on the processing

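Of 2149 values under the alternatives, 1874 kept their direction and side of the threshold or moved by less than the spread, 107 turned sign, 100 moved further, 17 passed where the value given above did not, and 51 no longer passed. Of 84 comparisons of single members, 40 turned sign under at least 1 alternative and 13 passed under at least 1. Where a library left out leaves 2 in its group, the spread is pooled over the groups. The deviations of same-numbered libraries from their group means had correlations from -0.614 to 0.442, of both signs. Different-numbered libraries were not set beside them, so these values cannot decide if the replicate number is a pairing. The main test used no pairing, and the replicate number was a block in an alternative. The cause of these changes was not tested. Counts of members between females and males include C1qb, Slc40a1 and Vcam1, which reached the minimum level only through the females. They also include Clec9a, which reached it only through the males. These counts are to be read against the count of all genes beside them. Depth limits the minus-strand members, where 3 reads correspond to 0.114 to 0.232 CPM.

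By DESeq2, 237 in males, 703 in females, 1129 over both sexes and 2724 between females and males of all tested genes passed. 1 over both sexes and 8 between females and males of the members passed. By limma-voom with quality weights, 177 in males, 5437 in females, 4630 over both sexes, 1040 for the difference between the sexes and 4235 between females and males of all tested genes passed. 10 in females, 7 over both sexes and 10 between females and males of the members passed. Log2 fold changes turned sign in males for Trem2 (1.28), and in females for Cd163 (0.92) and Slc40a1 (0.42), and for the difference between the sexes for Mpeg1 (-0.43), Itgax (-0.10) and H2-Ab1 (-0.49). With no low-count filter, 26 in males, 94 in females and 54 between females and males (0.181%) of all tested genes passed. 2 between females and males of the members passed. In a fit of female libraries alone, 0 in females of all tested genes passed. In a fit of male libraries alone, 0 in males of all tested genes passed. With plus-strand genes only, 14 in males and 44 between females and males (0.464%) of all tested genes passed. 2 between females and males of the members passed, as did 2 plus-strand members in the fit given above. The minus-strand members that passed there, Axl, Slc40a1 and Vcam1, were not in this fit. With the replicate number as a block, 0 in males, 0 in females, 209 over both sexes and 5 between females and males of all tested genes passed. 0 between females and males of the members passed. The members' median log2 fold change was 2.40 in males, -1.80 for the difference between the sexes and 1.70 between females and males. Log2 fold changes turned sign in males for Trem2 (1.87), and in females for Cd163 (0.012) and Slc40a1 (0.032), and for the difference between the sexes for Csf1r (-1.32), Adgre1 (-2.31), Timd4 (-2.22), Trem2 (-0.97), Tyrobp (-2.17), Mpeg1 (-1.80), Itgam (-1.29), Itgax (-2.57), Cd74 (-0.81), H2-Ab1 (-2.44), H2-Eb1 (-1.91) and Clec9a (-2.08). Without female knockout libraries 1 and 3, 11 in males, 0 in females, 44 over both sexes and 7 between females and males of all tested genes passed. 0 between females and males of the members passed. Log2 fold changes turned sign in females for Sirpa (0.51), Mertk (0.25) and Slc40a1 (0.065), and for the difference between the sexes for Mpeg1 (-0.089). Without male knockout library 2 and male floxed library 4, 0 in males, 63 in females and 11 between females and males of all tested genes passed. 0 between females and males of the members passed. The members' median log2 fold change was 2.19 between females and males. Log2 fold changes turned sign in males for Trem2 (1.199), and for the difference between the sexes for Csf1r (-0.39), Adgre1 (-0.72), Timd4 (-0.60), Trem2 (-0.38), Tyrobp (-0.53), Mpeg1 (-0.53) and Itgax (-0.72).

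With each library left out in turn, the count of all tested genes that passed ran from 0 to 35 in males, 0 to 3090 in females, 98 to 2939 over both sexes, 0 to 1108 for the difference between the sexes and 11 to 4281 between females and males. The count of members that passed ran from 0 to 1 in females, 0 to 1 over both sexes and 0 to 7 between females and males. The members' median ran from -0.77 to 2.41 in males, -1.80 to 1.78 for the difference between the sexes and -0.030 to 1.45 between females and males. Log2 fold changes that turned sign in males ran, for Csf1r from -0.63 to 1.94, Adgre1 from -1.28 to 3.41, Timd4 from -1.44 to 3.30, Tyrobp from -1.51 to 3.24, Itgam from -2.12 to 3.89, Itgax from -1.66 to 4.18, Cd74 from -1.43 to 2.48, H2-Ab1 from -2.75 to 3.68, H2-Eb1 from -2.75 to 3.59, Clec9a from -1.59 to 2.46, Trem2 from -0.77 to 1.83 and Mpeg1 from -0.44 to 2.79. Log2 fold changes that turned sign in females ran, for Sirpa from -0.87 to 0.15, Mertk from -0.997 to 0.18, Cd163 from -0.62 to 0.85, Slc40a1 from -0.35 to 0.54 and Mrc1 from -0.078 to 1.14. Log2 fold changes that turned sign over both sexes ran, for Sirpa from -0.10 to 0.55, Mertk from -0.028 to 0.65, Adgre1 from -0.094 to 2.24, Timd4 from -0.21 to 2.15, Tyrobp from -0.26 to 2.11, Itgax from -0.10 to 2.80, H2-Ab1 from -0.92 to 2.29, H2-Eb1 from -0.77 to 2.39 and Clec9a from -0.49 to 1.53. Log2 fold changes that turned sign for the difference between the sexes ran, for Mrc1 from -1.18 to 0.036, Hmox1 from -1.34 to 0.16, Mpeg1 from -1.80 to 1.45, Clec9a from -1.87 to 2.20, H2-Ab1 from -2.78 to 3.67, Csf1r from -1.26 to 1.32, Adgre1 from -2.34 to 2.37, Timd4 from -2.29 to 2.48, Trem2 from -1.03 to 1.97, Tyrobp from -2.26 to 2.52, Itgam from -1.61 to 4.43, Itgax from -2.74 to 3.11, Cd74 from -1.01 to 2.93 and H2-Eb1 from -2.40 to 3.96.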

Other observations

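Among genes outside the list, Irf8, a transcription factor of dendritic cells and monocytes, followed the macrophage genes little, with a Pearson r of 0.21 to the mean of the 5 over the 12 libraries after group means were subtracted. Irf8 had 151, 260 and 258 CPM in male knockout libraries 1 to 3, against 146, 165 and 281 CPM in male floxed libraries 1, 2 and 4. In females Irf8 had 24.05, 169 and 39.0 CPM in knockout libraries 1 to 3, against 105, 150 and 192 CPM in floxed ones, and female knockout libraries 1 and 3 were the lowest of all 12. The fit over both sexes gave Irf8 a log2 fold change of -0.39 (SE 0.43, adjusted p = 0.633 by edgeR).

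Tissue genes other than those of blood cells stood out in single libraries. Psmb11, a proteasome subunit of cortical thymic epithelium, had 43.3 CPM in female knockout library 3 and at most 6.41 CPM elsewhere. Epcam, an adhesion molecule of epithelial cells, reached 44.9 CPM in the third male knockout library and 23.4 CPM in the second male floxed one, with at most 7.03 CPM elsewhere. Dcn, a matrix proteoglycan of fibroblasts, had 42.7 CPM in female knockout library 3, and in males 31.2 CPM in knockout library 2, 12.6 CPM in floxed library 1, and at most 5.21 CPM elsewhere. These libraries were not the same for the 3 genes.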
